A study of Mus musculus with 11 samples.

Results

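The genes described here are Trp53, which encodes p53, its inhibitor Mdm2, and 29 genes known as targets of p53. They were chosen by name, and all 31 of 31 symbols were found among the 39179 gene identifiers of the table. By role they comprise the 2 regulators, 11 genes of cell cycle arrest and growth control, 11 of cell death, 4 of DNA repair and nucleotide supply, and 3 of metabolism and matrix. Messenger RNA was measured by RNA-seq in mouse C57BL/6 cells. Embryonic stem cells (ESCs) were either wild type (WT) or Mettl3 knockout (KO), and each genotype has 3 libraries with the letters A, B and C. They were kept without serum in LIF with CHIR99021 at 1 to 3 µM, a GSK3 inhibitor, and PD0325901 at 1 µM, a MEK inhibitor. Embryoid bodies (EBs) are floating clusters that ESCs form as they differentiate once LIF and the inhibitors are withdrawn; they were WT or KO, and each genotype has 2 libraries with the letters A and B. EB culture is given in the labels as 8 to 21 days without assigning a day to a library. The number of clones behind each line is not given in the sources used here, and 1 fibroblast library of the series is not analysed here.

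Mettl3 is the catalytic subunit of the enzyme complex that writes N6-methyladenosine, a base modification that mostly shortens the life of a messenger RNA. p53 is a transcription factor held low by Mdm2, a ubiquitin ligase that marks it for degradation and is itself switched on by p53. When DNA damage or other stress stabilises p53, it binds response elements near its targets and raises genes that stop the cell cycle (Cdkn1a), start mitochondrial or receptor-driven apoptosis (Bbc3, Pmaip1, Bax, Fas, Tnfrsf10b) or aid repair (Xpc, Ddb2, Rrm2b). p53 protein and its activity were not measured here, so all values below are levels of messenger RNA.

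A p53 response element is the best-known regulatory sequence that such genes share, and those found next to start sites are shown. RefSeq promoter windows of GRCm38.p6, from 250 bases before to 50 bases after a start site, matched 23 of the 31 genes. A gene could have several start sites, and tested genes had 14027 windows in all. Distances below are to the start site of the window with the match, which need not be the one most used. Both strands were searched for the 20-base p53 consensus with no spacer, at most 2 mismatches and no mismatch at the core C and G. Of these 23 genes 2 held a match, or 8.70%, against 0.446% of 10986 tested genes with a window. The matches lie at chr17:29090928-29090947 before Cdkn1a, starting 51 bases before the start site, and at chr11:40755462-40755481 before Ccng1, on the minus strand and starting 195 bases before the start site. Each has 1 mismatch, and the core bases are in capitals.
Cdkn1a: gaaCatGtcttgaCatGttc
Ccng1: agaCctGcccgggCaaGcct
The 250 bases before each start site follow, with the element in capitals, at chr17:29090729-29090978 on the plus strand and chr11:40755287-40755536 on the minus strand.
Cdkn1a: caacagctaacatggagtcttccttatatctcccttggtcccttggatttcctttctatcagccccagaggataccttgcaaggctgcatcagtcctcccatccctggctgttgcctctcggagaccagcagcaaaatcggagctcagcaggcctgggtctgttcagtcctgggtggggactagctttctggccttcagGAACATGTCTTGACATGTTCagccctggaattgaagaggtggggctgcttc
Ccng1: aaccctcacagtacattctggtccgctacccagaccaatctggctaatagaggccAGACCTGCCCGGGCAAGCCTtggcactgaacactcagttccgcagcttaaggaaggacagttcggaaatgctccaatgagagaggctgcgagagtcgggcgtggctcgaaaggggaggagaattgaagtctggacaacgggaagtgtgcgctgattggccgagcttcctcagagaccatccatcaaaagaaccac
A match is a description of letters, not of binding.

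Libraries held 8523027 to 15426894 reads in genes, except for ESC replicate C, with 3026837 in WT and 3075007 in KO. Per the labels this replicate accompanied a SILAC protein measurement, and it stood apart from A and B. The summed level of 8 fibroblast and matrix markers was 6608, 6738 and 237 normalized counts in WT ESCs A, B and C. It was 11124, 11408 and 189 in KO ESCs, although Thy1, Pdgfrb and Postn were lower in the KO in A and B. In EBs the sum was 3186 and 3164 in WT and 2187 and 2139 in KO. The part of these markers in the differences of the 31 genes was not tested. The summed level of 62 replication-dependent histone genes, whose transcripts lack a poly(A) tail, was 208 in WT ESC C and 267 in KO ESC C. It was 111703 to 167857 in ESC A and B and 88973 to 114325 in EBs. Whether RNA selection differed between these libraries was not tested. Mettl3 itself was at 392 to 425 normalized counts in WT ESCs and 131 to 138 in KO ESCs, and at 368 to 399 in WT EBs and 147 to 154 in KO EBs, so every KO library lay below every WT library. The summed level of 10 markers of naive or general pluripotency, among them Pou5f1, Sox2 and Nanog, was 34333 to 69072 in WT ESCs and 42541 to 53170 in KO ESCs. It was 17546 to 19854 in WT EBs and 28253 to 32604 in KO EBs. The EBs differed in other cell types by genotype: 10 parietal endoderm markers summed to 169064 and 170913 in WT EBs but 3629 and 3644 in KO EBs, and 5 trophectoderm markers to 7409 and 7835 against 654 and 662. Krt8 (3989 and 4132 against 203 and 196) and Krt18 (3268 and 3575 against 292 and 312), keratins of simple epithelia, made up most of the latter sum in WT EBs. Cdx2 was at 18.4 and 15.5 against 0 and 0, Elf5 at 6.90 and 6.03 against 0.706 and 0.849, and Eomes ran the other way, at 126 and 107 against 167 and 145. Of 7 visceral endoderm markers, Apoe was near level, at 13164 and 11276 in WT EBs and 13280 and 11914 in KO EBs. The rest were lower in both KO EBs, with Cubn at 2335 and 2702 against 4.24 and 10.2. Afp was at 405 and 473 against 0 and 0. Values are DESeq-normalized counts, differences are log2(value + 1) with the SE of a limma fit, and adjusted p is Benjamini-Hochberg over 15781 genes with a threshold of 0.05. All 31 genes passed the filter on low values. A second fit adds the replicate letter as a term, which compares KO and WT libraries of the same letter (the replicate block).

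In ESCs the 31 transcripts were mostly higher in the KO, although that of Trp53, which is among them, was lower. Of the 31 differences 23 were above 0, beside 48.6% of those of all tested genes. Of the 31 genes 2 rose, Phlda3 and Aen, and 0 fell, while 1.31% of all tested genes rose and 1.07% fell. By limma 8 of 31 had an unadjusted p under 0.05, edgeR called 0 and DESeq2 called 6, all higher, against 17.2%, 2.15% and 12.4% of all genes in either direction. Both calls were lost when any 1 of the A or B libraries of ESCs or EBs was left out. With the replicate block 14 rose and 3 fell, against 18.2% and 20.0% of all genes. The 14 were Cdkn1a, Btg2, Phlda3, Zmat3, Ddit4l, Pmaip1, Tnfrsf10b, Perp, Aen, Rrm2b, Polk, Dcxr, Sulf2 and Ephx1, and the 3 were Trp53, Gadd45a and Plk3. With separate letters for ESCs and EBs, a fit added after seeing the data, 14 passed, against 29.3% of all genes. Without the replicate C libraries 17 rose and 3 fell, against 27.4% and 27.8%. The median difference of the 31 genes was 0.55, beside -0.02 for all genes tested. By pair of libraries the median was 0.73 in A, 0.66 in B and 0.01 in C, with 25, 23 and 16 of 31 genes higher in the KO. Of all tested genes 49.9%, 49.3% and 44.3% were higher in these pairs. Pair C thus showed little of the shift seen in A and B, and 15 genes were higher in all 3 pairs, a pattern not counted over all genes. In 7 genes every KO ESC library lay above every WT ESC library, and in 1 below, against 9.23% and 8.78% of all genes.

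In EBs the balance was the other way. Of the 31 genes 2 fell, Ccng1 and Btg2, and 0 rose, while 1.37% of all genes fell and 0.469% rose. By limma 5 of 31 had an unadjusted p under 0.05, edgeR called 1 and DESeq2 called 3, against 13.9%, 1.78% and 9.83% of all genes. Here too both calls were lost when any 1 of the A or B libraries was left out. With the replicate block 7 fell (Ccng1, Btg2, Sesn2, Perp, Apaf1, Trp53inp1 and Dcxr) and 4 rose (Sesn1, Bax, Aen and Rrm2b), against 18.1% and 13.9%. With separate ESC and EB letters 9 passed, against 22.7%. Without the replicate C libraries, which add to the estimate of spread only, 11 fell and 5 rose, against 27.9% and 24.1%. The median difference was -0.23, beside -0.02 for all genes, and it was -0.22 in pair A and -0.16 in pair B. The KO EBs lay wholly below the WT EBs in 15 genes and wholly above in 11, against 38.9% and 36.0% of all genes, so these separations were near the background. EBs are mixtures of cells, so fewer cells of a type and less RNA per cell cannot be told apart. The part of the lower parietal and visceral endoderm markers (Apoe aside), Krt8 and Krt18 in these differences was not tested.

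**Figure D1:**
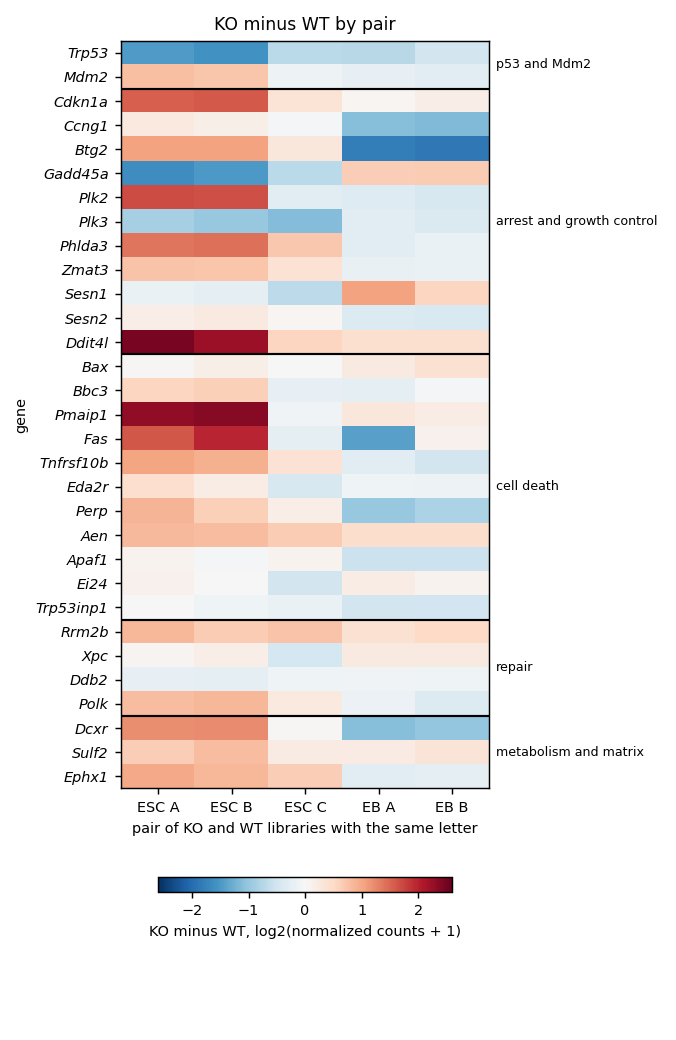
KO minus WT on the log2(normalized counts + 1) scale for the 31 genes (rows, by role) in each pair of libraries with the same letter (columns); red is higher in the KO and blue lower. Red prevails in ESC pairs A and B (25 and 23 of 31 genes higher), fades in pair C (16 of 31), and gives way to blue in the EB pairs (11 and 12 of 31). Of all tested genes 49.9%, 49.3% and 44.3% were higher in ESC pairs A, B and C, and 48.5% in each EB pair.

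Trp53 lies at chr11:69580359-69591873 (GRCm38). It stood at 669, 622 and 4911 normalized counts in WT ESCs A, B and C, at 242, 209 and 3041 in KO ESCs, at 455 and 368 in WT EBs A and B, and at 274 and 262 in KO EBs. It was lower in the KO in all 5 pairs, by -1.47, -1.57 and -0.69 in ESCs and by -0.73 and -0.48 in EBs, while the groups of ESC libraries overlapped because both C libraries were several times higher. The ESC difference was -1.24 (SE 1.15, adjusted p = 0.722), and with the replicate block it fell (SE 0.17, adjusted p = 0.00264). In EBs the difference was -0.61 (adjusted p = 1, and 0.0707 with the replicate block, SE 0.21). Genes on chromosome 11, where Trp53, Ccng1 and Dcxr lie, had a median difference of -0.23 in ESCs and -0.44 in EBs over 1344 tested genes, beside -0.02 for all genes in either. The part of this shift in the differences of the 3 genes was not tested.

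Mdm2, the ubiquitin ligase that limits p53, lies at chr10:117688875-117710758. It stood at 1686, 1891 and 1690 normalized counts in WT ESCs, at 2890, 3097 and 1544 in KO ESCs, at 2325 and 2552 in WT EBs, and at 2001 and 2106 in KO EBs. KO ESCs A and B lay above all WT ESCs and KO ESC C below them, so pair C went the other way. The ESC difference of 0.45 did not pass (SE 0.26, adjusted p = 0.459, and 0.0819 with the replicate block). Without the replicate C libraries Mdm2 rose by 0.74 in ESCs (SE 0.09, adjusted p = 0.000136) and fell by 0.25 in EBs (SE 0.09, adjusted p = 0.0382).

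Of the arrest and growth control genes, with the replicate block 5 of 11 rose and 2 fell in ESCs, and 1 rose and 3 fell in EBs, beside 18.2% and 20.0% of all genes in ESCs and 13.9% and 18.1% in EBs. Cdkn1a, which encodes the cyclin-dependent kinase inhibitor p21, lies at chr17:29090976-29100727 and carries the element printed above. It stood at 267, 247 and 527 normalized counts in WT ESCs, at 788, 753 and 672 in KO ESCs, at 457 and 414 in WT EBs, and at 472 and 470 in KO EBs. All KO ESCs lay above all WT ESCs, with the smallest gap between the C libraries. The ESC difference was 1.17 (SE 0.28, adjusted p = 0.078), and with the replicate block Cdkn1a rose (SE 0.24, adjusted p = 0.0112). In EBs the difference was 0.11 (SE 0.34, adjusted p = 1). A stretch of 7.68% of its exons is shared with an annotated gene on the opposite strand, and the library kit does not keep the strand.

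Phlda3, a pleckstrin-homology protein that restrains Akt signalling, lies at chr1:135766119-135769136. It stood at 976, 742 and 1110 normalized counts in WT ESCs, at 2556, 2007 and 1794 in KO ESCs, at 1679 and 1226 in WT EBs, and at 1369 and 1088 in KO EBs. All KO ESCs lay above all WT ESCs, and the EB groups overlapped. Phlda3 rose in KO ESCs by 1.17 (SE 0.23, adjusted p = 0.0485, and 0.00187 with the replicate block). The EB difference was -0.23 (SE 0.28, adjusted p = 0.923).

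Btg2, an antiproliferative partner of the Ccr4-Not deadenylase, lies at chr1:134075170-134079120 and was the 1 gene of the 31 whose KO effects in ESCs and EBs differed in the limma fit of all libraries without the block. It stood at 438, 418 and 807 normalized counts in WT ESCs, at 906, 866 and 983 in KO ESCs, at 1158 and 1091 in WT EBs, and at 335 and 301 in KO EBs. The KO libraries lay above the WT libraries in ESCs and below them in EBs, without overlap in either. The ESC difference was 0.79 (SE 0.25, adjusted p = 0.154), and with the replicate block it rose (SE 0.15, adjusted p = 0.00915). In EBs Btg2 fell by 1.82 (SE 0.31, adjusted p = 0.0345, and 0.00133 with the replicate block). The KO effect in EBs minus that in ESCs was -2.62 (SE 0.40, adjusted p = 0.047, and 0.0022 with the replicate block). The call was lost when any 1 of the A or B libraries was left out.

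Ccng1, which encodes cyclin G1, lies at chr11:40748552-40755311 and carries the other element printed above. It stood at 2767, 3231 and 2830 normalized counts in WT ESCs, at 3302, 3608 and 2758 in KO ESCs, at 4149 and 4858 in WT EBs, and at 1929 and 2180 in KO EBs. The ESC groups overlapped, with a difference of 0.13 (SE 0.16, adjusted p = 0.841). In EBs every KO library lay below every WT library, and Ccng1 fell by 1.13 (SE 0.20, adjusted p = 0.0356, and 0.000415 with the replicate block). The difference of the KO effects was -1.26 (SE 0.25, adjusted p = 0.109, and 0.00135 with the replicate block). Of the 2 genes with an element, Cdkn1a was higher in all KO ESCs and near level in EBs, and Ccng1 was near level in ESCs and lower in both KO EBs.

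Gadd45a, a stress sensor that binds PCNA and p21, ran opposite to most of the group. It stood at 361, 321 and 1015 normalized counts in WT ESCs, at 117, 113 and 628 in KO ESCs, at 871 and 753 in WT EBs, and at 1360 and 1193 in KO EBs. It was lower in the KO in all 3 ESC pairs and higher in both EB pairs, although the C libraries made the ESC groups overlap. The ESC difference was -1.27 (SE 0.71, adjusted p = 0.444), and with the replicate block it fell (SE 0.18, adjusted p = 0.00267). The EB difference was 0.65 (SE 0.87, adjusted p = 0.951, and 0.0619 with the replicate block). The difference of the KO effects, 1.92 (SE 1.12, adjusted p = 0.841), passed with the replicate block (SE 0.28, adjusted p = 0.00793). An antisense gene overlaps 19.1% of its exons.

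**Figure D2:**
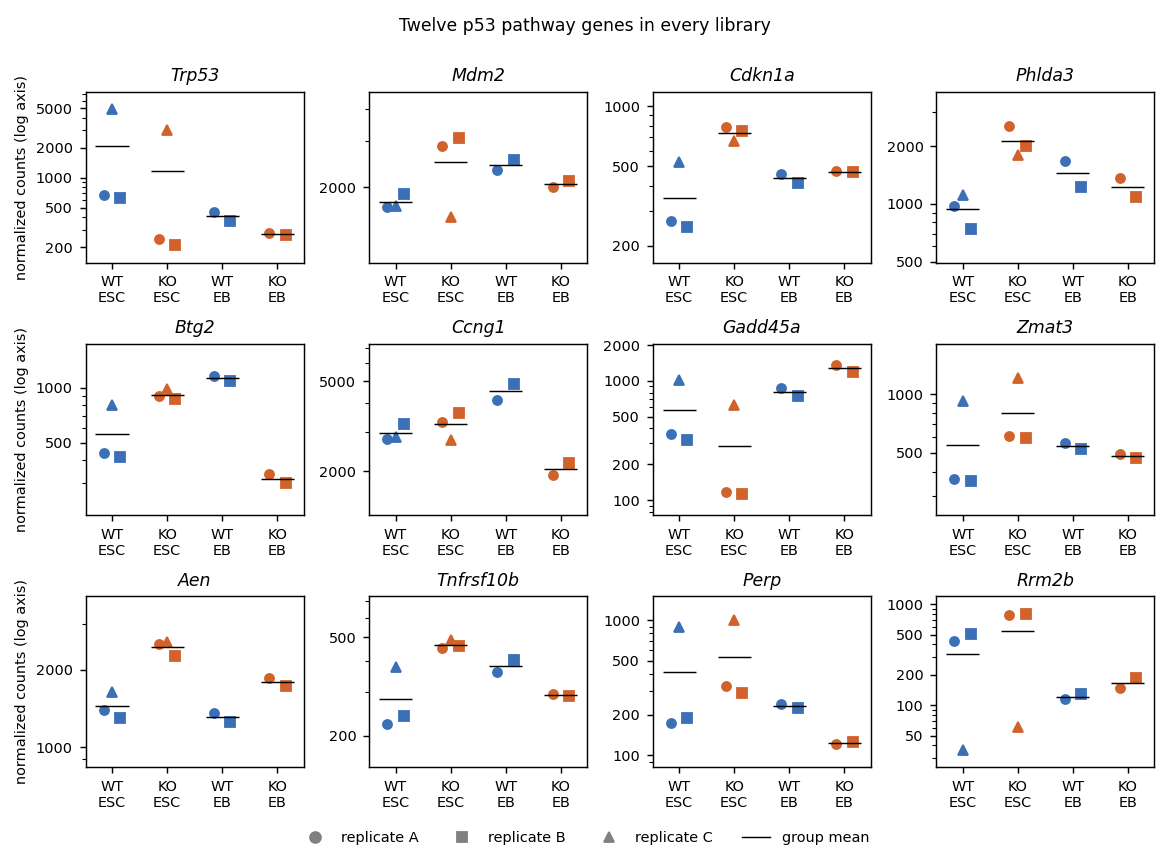
Normalized counts (log axis) of 12 of the 31 genes in each library, by group; blue is WT, orange KO, the marker shows the replicate letter and the line the group mean. Cdkn1a, Phlda3, Btg2, Aen and Tnfrsf10b are higher in all KO ESCs than in all WT ESCs. Trp53, Mdm2, Btg2, Ccng1, Zmat3, Perp and Tnfrsf10b are lower in both KO EBs than in both WT EBs. The replicate C triangles stand apart for Trp53, Gadd45a, Zmat3, Perp and Rrm2b.

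Plk2 and Plk3 are stress-responsive polo-like kinases. Plk3 stood at 114, 127 and 435 normalized counts in WT ESCs, at 62.6, 63.6 and 197 in KO ESCs, at 250 and 224 in WT EBs, and at 206 and 173 in KO EBs. It was lower in the KO in every pair, with an ESC difference of -1.0 (SE 0.61, adjusted p = 0.499) that passed as a fall with the replicate block (SE 0.12, adjusted p = 0.00149). Plk2 averaged 733 ± 8.94 (SD, n = 3) in WT ESCs, 1774 ± 1010 in KO ESCs, 1277 ± 7.33 (SD, n = 2) in WT EBs and 981 ± 50.3 in KO EBs. Its KO ESC spread came from C, since the pair differences were 1.70, 1.68 and -0.28, and 1.03 did not pass (adjusted p = 0.337, and 0.0739 with the replicate block). Without the replicate C libraries Plk2 rose by 1.69 in ESCs (SE 0.07, adjusted p = 1.29e-06) and fell by 0.38 in EBs (SE 0.07, adjusted p = 0.00185).

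Zmat3, a zinc finger protein that binds RNA, stood at 366, 360 and 922 normalized counts in WT ESCs, at 608, 593 and 1205 in KO ESCs, at 562 and 526 in WT EBs, and at 492 and 470 in KO EBs. It was higher in the KO in all ESC pairs and lower in both EB pairs. The ESC difference of 0.61 (SE 0.42, adjusted p = 0.562) passed as a rise with the replicate block (SE 0.08, adjusted p = 0.00252), and the EB difference was -0.18 (adjusted p = 1, and 0.239 with the replicate block). Ddit4l, an inhibitor of mTORC1 signalling, stood at 51.5, 72.5 and 161 normalized counts in WT ESCs, at 289, 343 and 239 in KO ESCs, at 140 and 142 in WT EBs, and at 186 and 189 in KO EBs. Its KO libraries lay above the WT libraries in both cell types, and its ESC difference of 1.75 was the highest of the 31 genes (SE 0.39, adjusted p = 0.066, and a rise with the replicate block, SE 0.36, adjusted p = 0.0111). In EBs it was 0.41 (SE 0.48, adjusted p = 0.919).

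Sestrins limit mTORC1 when amino acids or redox balance fail. Sesn1 stood at 239, 253 and 250 normalized counts in WT ESCs, at 212, 214 and 156 in KO ESCs, at 112 and 152 in WT EBs, and at 231 and 223 in KO EBs. KO libraries lay below WT libraries in ESCs and above them in EBs. The ESC difference was -0.37 (adjusted p = 0.433, and 0.0928 with the replicate block), and the EB difference of 0.80 (SE 0.25, adjusted p = 0.182) passed as a rise with the replicate block (SE 0.18, adjusted p = 0.0178). Sesn2 stood at 1490, 1325 and 1436 normalized counts in WT ESCs, at 1683, 1558 and 1489 in KO ESCs, at 1880 and 1705 in WT EBs, and at 1478 and 1289 in KO EBs. Its EB difference of -0.38 (SE 0.16, adjusted p = 0.359) passed as a fall with the replicate block (SE 0.07, adjusted p = 0.00858). The 2 sestrins therefore moved in opposite directions in EBs with the replicate block.

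Cell death genes: with the replicate block 4 of 11 rose and 0 fell in ESCs, against 18.2% and 20.0% of all genes, and 2 rose and 3 fell in EBs, against 13.9% and 18.1%. Aen, an exonuclease of apoptotic cells that lies at chr7:78895854-78911209, stood at 1389, 1302 and 1631 normalized counts in WT ESCs, at 2508, 2268 and 2572 in KO ESCs, at 1358 and 1250 in WT EBs, and at 1852 and 1722 in KO EBs. KO libraries lay above WT libraries in both cell types, and the 3 ESC pairs gave 0.85, 0.80 and 0.66. Aen rose in ESCs by 0.77 (SE 0.14, adjusted p = 0.0416, and 0.000416 with the replicate block). In EBs the difference of 0.45 (SE 0.17, adjusted p = 0.283) passed as a rise with the replicate block (SE 0.07, adjusted p = 0.00436).

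Among the death receptors, Tnfrsf10b, the mouse TRAIL receptor, stood at 223, 241 and 379 normalized counts in WT ESCs, at 455, 460 and 489 in KO ESCs, at 363 and 404 in WT EBs, and at 295 and 290 in KO EBs. The KO lay above the WT in ESCs and below it in EBs, without overlap in either. In ESCs the difference was 0.77 (SE 0.21, adjusted p = 0.108), and with the replicate block it rose (SE 0.13, adjusted p = 0.00612). In EBs it was -0.39 (adjusted p = 0.651, and 0.124 with the replicate block). Fas, the receptor of Fas ligand, was the least abundant of the 31 genes per kilobase of exon in all 4 groups, at 4.58 to 13.2 normalized counts in WT ESCs, 11.1 to 20.9 in KO ESCs, 7.75 to 9.19 in WT EBs and 2.83 to 8.49 in KO EBs. Its differences of 1.12 in ESCs and -0.65 in EBs did not pass (adjusted p = 0.416 and 0.907). Eda2r, the receptor of ectodysplasin A2, averaged 728 ± 378 in WT ESCs, 712 ± 137 in KO ESCs, 797 ± 71.9 in WT EBs and 734 ± 58.2 in KO EBs, and passed with neither fit.

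The BH3-only genes Pmaip1 (Noxa) and Bbc3 (Puma) encode proteins that open the way to mitochondrial apoptosis. Pmaip1 stood at 84.4, 95.4 and 422 normalized counts in WT ESCs, at 424, 499 and 397 in KO ESCs, at 420 and 492 in WT EBs, and at 516 and 562 in KO EBs. WT ESCs A and B were low and every other library was at 397 or above, so pairs A and B differed by 2.31 and 2.37 and pair C by -0.09. The ESC difference of 1.53 (SE 0.56, adjusted p = 0.204) passed as a rise with the replicate block (SE 0.46, adjusted p = 0.0427), but not when ESC and EB letters had terms of their own (adjusted p = 0.0831). Bbc3 averaged 390 ± 183 in WT ESCs, 543 ± 340 in KO ESCs, 729 ± 261 in WT EBs and 651 ± 179 in KO EBs, and passed with neither fit. In ESC pairs A and B its differences were 0.57 and 0.61, beside 2.31 and 2.37 for Pmaip1.

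Bax, the pore-forming effector of mitochondrial apoptosis, stood at 1874, 1509 and 3169 normalized counts in WT ESCs, at 1908, 1673 and 3194 in KO ESCs, at 1625 and 1311 in WT EBs, and at 1923 and 1724 in KO EBs. The ESC pairs differed by 0.15 or less, and the EB difference of 0.32 (SE 0.41, adjusted p = 0.94) passed as a rise with the replicate block (SE 0.07, adjusted p = 0.0158). A gene model on the same strand shares 12.2% of the Bax exons. Apaf1, the core of the apoptosome that activates caspase 9, stood at 856, 949 and 217 normalized counts in WT ESCs, at 915, 924 and 231 in KO ESCs, at 1099 and 1197 in WT EBs, and at 745 and 808 in KO EBs. It was level between genotypes in ESCs, at 0.05, and its EB difference of -0.56 (SE 0.85, adjusted p = 0.977) passed as a fall with the replicate block (SE 0.07, adjusted p = 0.00232). Bax and Apaf1 thus moved in opposite directions in EBs with the replicate block.

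Perp, a membrane protein of desmosomes linked to p53-dependent death, stood at 175, 189 and 889 normalized counts in WT ESCs, at 325, 291 and 1003 in KO ESCs, at 241 and 223 in WT EBs, and at 122 and 127 in KO EBs. It was higher in the KO in all ESC pairs and lower in both EB pairs. The ESC difference of 0.56 (SE 0.70, adjusted p = 0.834) passed as a rise with the replicate block (SE 0.14, adjusted p = 0.0215), but not with separate ESC and EB letters (adjusted p = 0.0511). The EB difference of -0.89 (SE 0.86, adjusted p = 0.836) passed as a fall with the replicate block (SE 0.17, adjusted p = 0.0103). Trp53inp1, a nuclear cofactor that promotes p53-driven death, stood at 2587, 3159 and 2092 normalized counts in WT ESCs, at 2559, 2935 and 1861 in KO ESCs, at 2909 and 3492 in WT EBs, and at 2076 and 2475 in KO EBs. It was lower in the KO in every pair, by 0.17 or less in ESCs, and its EB difference of -0.49 (SE 0.28, adjusted p = 0.544) passed as a fall with the replicate block (SE 0.06, adjusted p = 0.00228). Ei24, a membrane protein of the endoplasmic reticulum, averaged 1042 ± 378 in WT ESCs, 921 ± 119 in KO ESCs, 735 ± 30.7 in WT EBs and 808 ± 10.7 in KO EBs, and passed with neither fit.

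**Figure D3:**
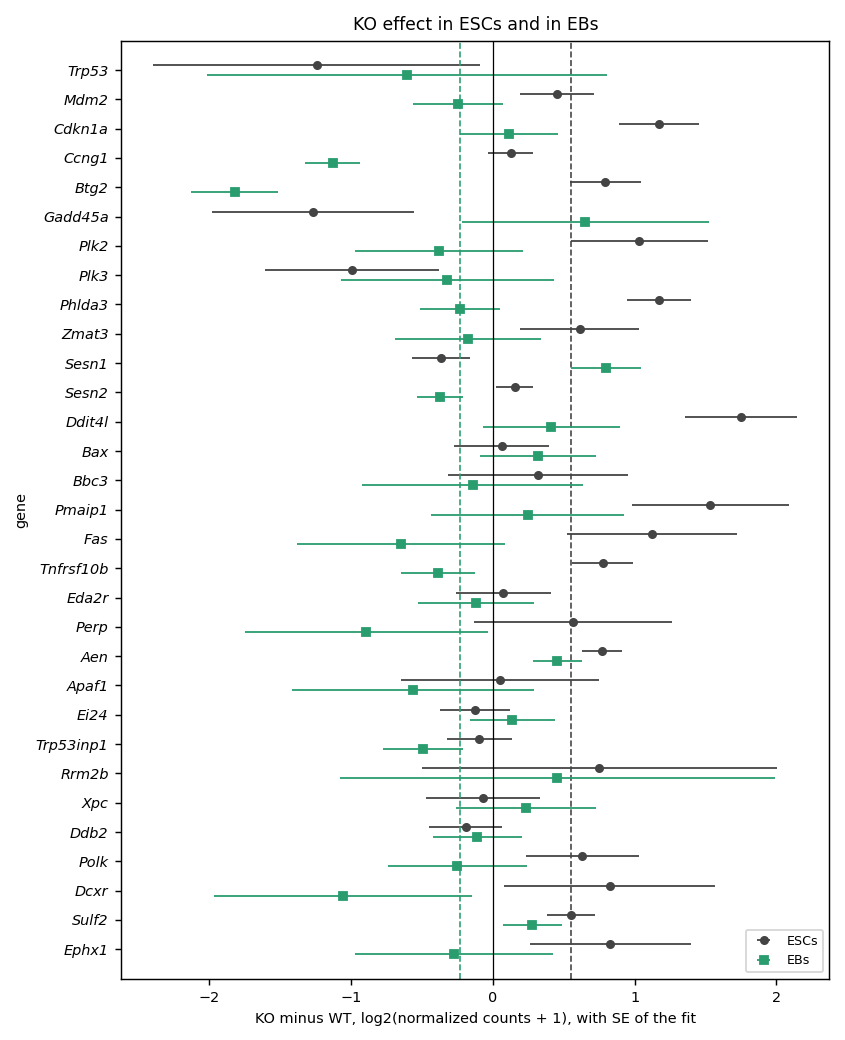
KO minus WT on the log2(normalized counts + 1) scale for the 31 genes, in ESCs (dark circles) and EBs (green squares), with the SE of the fit without the replicate block; dashed lines mark the medians over the 31 genes, 0.55 in ESCs and -0.23 in EBs. The bars of many genes cross 0. Those of Phlda3 and Aen in ESCs and of Ccng1 and Btg2 in EBs, which passed, do not. Bars of other genes that did not pass also stay clear of 0, such as Cdkn1a and Ddit4l in ESCs and Sesn1 in EBs.

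Of the 4 repair and nucleotide supply genes 2 rose in ESCs and 1 in EBs with the replicate block, and 0 fell, against the same shares of all genes as for the death genes. Rrm2b, the p53-induced subunit of ribonucleotide reductase, stood at 431, 505 and 36.2 normalized counts in WT ESCs, at 779, 799 and 61.1 in KO ESCs, at 114 and 129 in WT EBs, and at 150 and 186 in KO EBs. The C libraries were more than an order of magnitude below A and B in both genotypes, yet the KO was higher in all 5 pairs. In ESCs Rrm2b was higher by 0.75 (SE 1.26, adjusted p = 0.911) and rose with the replicate block (SE 0.09, adjusted p = 0.00148). The EB difference of 0.46 rose with the replicate block (SE 0.11, adjusted p = 0.0212), but not with separate ESC and EB letters (adjusted p = 0.0514).

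Polk, the translesion polymerase kappa, stood at 275, 321 and 178 normalized counts in WT ESCs, at 477, 580 and 211 in KO ESCs, at 396 and 516 in WT EBs, and at 357 and 405 in KO EBs. Its ESC difference of 0.63 (SE 0.40, adjusted p = 0.514) passed as a rise with the replicate block (SE 0.13, adjusted p = 0.0114), and its EB groups overlapped. Ddb2 and Xpc find ultraviolet lesions for nucleotide excision repair. Ddb2 stood at 195, 239 and 142 normalized counts in WT ESCs, at 169, 200 and 131 in KO ESCs, at 143 and 154 in WT EBs, and at 133 and 142 in KO EBs. It was lower in the KO in every pair, by 0.26 or less, and passed in neither cell type with either fit. Acp2 on the opposite strand overlaps 23.8% of its exons, and smaller overlaps with other annotated genes, of 2.62% to 8.04%, touch Sulf2, Plk3, Ephx1, Ei24 and Rrm2b. Xpc averaged 452 ± 129 in WT ESCs, 457 ± 209 in KO ESCs, 410 ± 9.10 in WT EBs and 483 ± 7.12 in KO EBs, and passed in neither with either fit.

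The 3 genes of metabolism and matrix all rose in ESCs with the replicate block, against 18.2% of all genes. In EBs 0 of them rose and 1 fell, against 13.9% and 18.1%. Dcxr, the L-xylulose reductase, stood at 421, 343 and 138 normalized counts in WT ESCs, at 973, 805 and 142 in KO ESCs, at 879 and 697 in WT EBs, and at 408 and 346 in KO EBs. Its ESC difference of 0.82 (SE 0.74, adjusted p = 0.706; SE 0.23, adjusted p = 0.0337 with the replicate block) came from pairs A and B, since pair C gave 0.03. In EBs it was -1.06 (SE 0.91, adjusted p = 0.787) and fell with the replicate block (SE 0.28, adjusted p = 0.0332). Neither call held with separate ESC and EB letters (adjusted p = 0.0701 and 0.0717).

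Ephx1, the microsomal epoxide hydrolase, stood at 310, 388 and 125 normalized counts in WT ESCs, at 614, 707 and 194 in KO ESCs, at 352 and 362 in WT EBs, and at 289 and 301 in KO EBs. The KO was higher in all ESC pairs and lower in both EB pairs. In ESCs Ephx1 was higher by 0.83 (SE 0.57, adjusted p = 0.564) and rose with the replicate block (SE 0.10, adjusted p = 0.0016). Sulf2, an extracellular heparan sulfate sulfatase, stood at 1306, 1071 and 1248 normalized counts in WT ESCs, at 2041, 1870 and 1447 in KO ESCs, at 1168 and 1026 in WT EBs, and at 1352 and 1300 in KO EBs. Its KO libraries lay above its WT libraries in both cell types, and the ESC difference of 0.55 (SE 0.17, adjusted p = 0.141) rose with the replicate block (SE 0.11, adjusted p = 0.0112).

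The KO effect in EBs minus that in ESCs was tested directly. It passed by limma in 1 of 31 genes, Btg2, while 0.475% of all tested genes passed. An unadjusted p under 0.05 was found in 7, edgeR called 0 and DESeq2 called 5, against 8.55%, 0.532% and 4.90% of all genes. With the replicate block 12 genes had a lower and 2 a higher KO effect in EBs than in ESCs, against 9.91% and 7.32% of all genes. Lower were Perp, Apaf1, Ccng1, Btg2, Polk, Tnfrsf10b, Zmat3, Trp53inp1, Sesn2, Ephx1, Dcxr and Phlda3, and higher were Gadd45a and Sesn1. With separate ESC and EB letters 9 passed, against 7.79% of all genes, and the other five, Sesn1, Polk, Tnfrsf10b, Trp53inp1 and Dcxr, did not (adjusted p = 0.0574, 0.0856, 0.0532, 0.0689 and 0.0576). Without the replicate C libraries 18 were lower and 4 higher, against 19.9% and 16.3%. The median difference of the effects was -0.61 for the 31 genes and below 0.01 in size for all genes. By pairs, 9 genes were higher in the KO in all ESC pairs and lower in both EB pairs, namely Btg2, Phlda3, Zmat3, Sesn2, Tnfrsf10b, Perp, Polk, Dcxr and Ephx1. Gadd45a and Sesn1 did the reverse. Cdkn1a, Ddit4l, Bax, Aen, Rrm2b and Sulf2 were higher in the KO in all 5 pairs, and Trp53, Plk3, Trp53inp1 and Ddb2 lower in all 5. These patterns were not counted over all genes.

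EBs were also compared with ESCs within each genotype; these comparisons share libraries with those above. Without the block 0 of 31 genes passed in WT, where 5 had an unadjusted p under 0.05, and 0 in KO, where 7 did, while 2.48% and 0.805% of all genes passed and 14.5% and 13.5% had an unadjusted p under 0.05. edgeR called 0 in both, against 2.78% and 1.22% of all genes, and DESeq2 3 in each, against 9.66% and 8.99%. The replicate block takes a letter to mark the same thing in ESCs and EBs, which the labels do not state. With it 10 genes rose and 3 fell from ESCs to EBs in WT, against 13.6% and 14.8% of all genes, and 2 rose and 13 fell in KO, against 12.0% and 16.1%. Without the replicate C libraries 18 rose and 5 fell in WT, against 22.5% and 23.7%, and 2 rose and 20 fell in KO, against 21.3% and 26.0%. WT EBs lay wholly above WT ESCs in 9 genes and below in 3, against 23.2% and 19.4% of all genes. KO EBs lay wholly above KO ESCs in 3 genes and below in 13, against 21.2% and 20.5%.

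Ccng1, Btg2, Apaf1, Tnfrsf10b and Phlda3 rose from ESCs to EBs in WT and fell in KO with the replicate block. Btg2 rose by 1.26 (SE 0.18, adjusted p = 0.00436) in WT, and in KO it was -1.35 (SE 0.18, adjusted p = 0.00379). Gadd45a and Plk3 rose in both genotypes, Gadd45a by 1.39 in WT and 3.32 in KO (SE 0.21 in each, adjusted p = 0.00485 and 0.000419). Rrm2b and Ddb2 fell in both, Rrm2b with -1.94 in WT and -2.23 in KO (SE 0.10 in each, adjusted p = 0.000199 and 0.000196). Pmaip1 rose by 1.92 in WT (SE 0.54, adjusted p = 0.0435) and was 0.63 higher in KO without passing (adjusted p = 0.433).

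**Figure D4:**
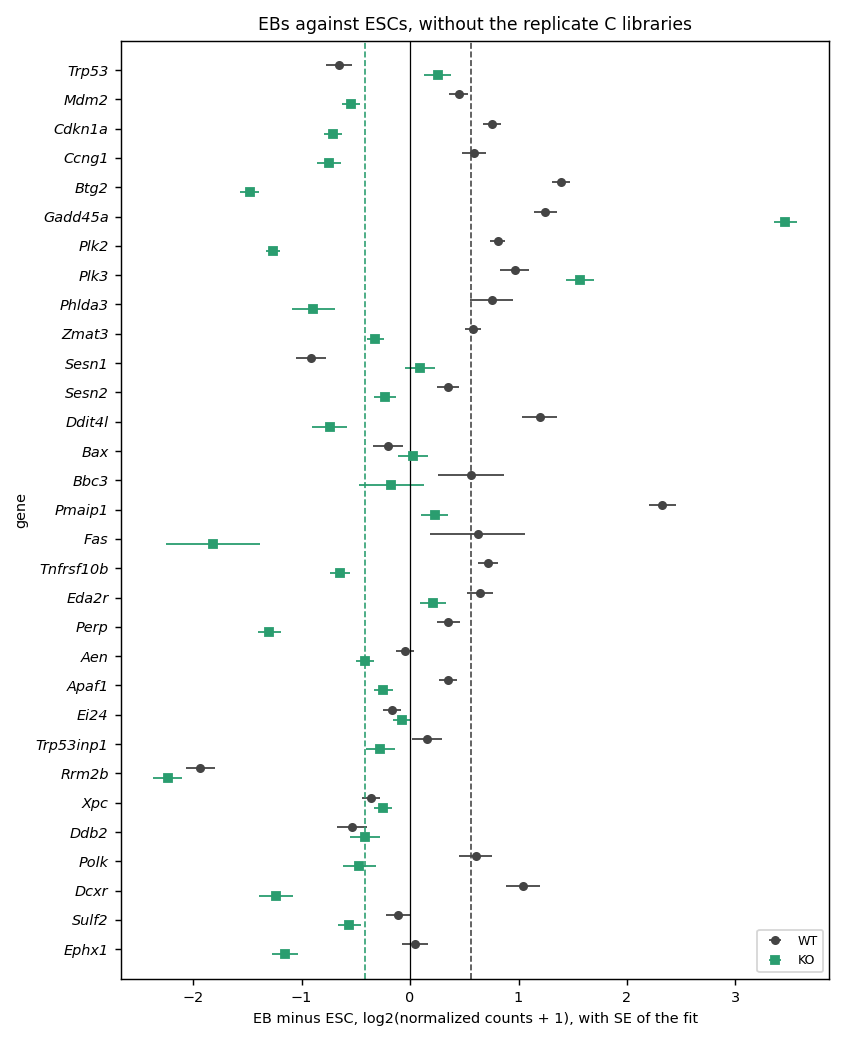
EB minus ESC on the log2(normalized counts + 1) scale for the 31 genes in WT (dark circles) and KO (green squares), with the SE of the fit without the replicate C libraries; dashed lines mark the medians, 0.56 in WT and -0.42 in KO. Most arrest and death genes lie right of 0 in WT and left of it in KO, while Gadd45a and Plk3 lie right and Rrm2b left of 0 in both.

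Levels of the 31 genes can be ranked only per length. Per kilobase of exon, Bax was highest in WT ESCs (1386 normalized counts per kilobase), KO ESCs (1433) and KO EBs (1157), and Ccng1 in WT EBs (1282). Its place in KO ESCs rests on replicate C: over A and B alone Phlda3 was highest there (1464) and Bax next (1136), while in WT ESCs Bax remained highest (1073). Phlda3 was among the top 3 in every group, and Gadd45a was among them in KO EBs (723). Because Mettl3 writes its mark within short motifs, the letters GGACT were counted in the longest GENCODE transcript of each gene. They occurred 1.15 times per kilobase at the median of the 31 genes and 1.02 times at that of all tested genes, and at least once in 93.5% and 88.7%. Dcxr and Plk3 held none. The count says nothing of which sites are methylated.

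Other genes of the pathway were taken from 4 lists: regulators of p53, further p53 targets, Bcl2 family and caspases, and Cdk, cyclin and Rb genes. Of 19 further targets 2 rose in KO ESCs and 0 fell, against 1.31% and 1.07% of all genes, with a median of 0.52. edgeR called 1 and DESeq2 called 4, against 2.15% and 12.4%. With the replicate block 8 rose and 2 fell, against 18.2% and 20.0% of all genes. Lif, the cytokine that sustains naive ESCs, rose by 1.36 (SE 0.22, adjusted p = 0.0321) from 76.8 ± 15.8 to 197 ± 21.7 normalized counts (SD, n = 3). Psrc1, a spindle protein, rose by 0.86 (SE 0.17, adjusted p = 0.0465) from 1449 ± 265 to 2617 ± 274. Both calls were lost when any 1 of the A or B libraries of ESCs or EBs was left out, and that of Psrc1 also by edgeR. In EBs 0 of 19 passed by limma (median 0.02), against 1.84% of all genes. There 3 had an unadjusted p under 0.05, edgeR called 0 and DESeq2 2, against 13.9%, 1.78% and 9.83%. With the replicate block 3 rose and 3 fell, against 13.9% and 18.1%. Tigar, a fructose bisphosphatase of p53, fell from WT ESCs to WT EBs, with a difference of -1.5 (SE 0.26, adjusted p = 0.0316), a call lost when any 1 of the A or B libraries other than KO ESC A was left out. Gtse1 was the most abundant further target that passed in no contrast, at 1738 ± 589 in WT ESCs and 2412 ± 303 in KO ESCs.

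Of the 18 tested regulators of p53 0 passed by limma with genotype in either cell type, against 2.38% of all genes in ESCs and 1.84% in EBs. In ESCs 6 had an unadjusted p under 0.05, edgeR called 0 and DESeq2 2, and in EBs the counts were 1, 0 and 1. The shares of all genes were 17.2%, 2.15% and 12.4% in ESCs and 13.9%, 1.78% and 9.83% in EBs. With the replicate block 8 rose and 6 fell in ESCs, against 18.2% and 20.0% of all genes, and 3 rose and 1 fell in EBs, against 13.9% and 18.1%. Ppm1d, the phosphatase that resets p53 signalling, rose from WT ESCs to WT EBs by 1.01 (SE 0.20, adjusted p = 0.0442), a call lost when any 1 of the A or B libraries was left out. Usp7, a deubiquitinase of Mdm2 and p53, was the most abundant regulator that did not pass, at 4612 ± 529 in WT ESCs and 3640 ± 565 in KO ESCs. Of 17 Cdk, cyclin and Rb genes 1 rose by limma, and it did so in both cell types, while 1.31% of all genes rose in ESCs and 0.469% in EBs. Cdk6, a kinase that acts with D-type cyclins in G1, rose by 1.16 in ESCs (SE 0.23, adjusted p = 0.0485) and by 2.06 in EBs (SE 0.28, adjusted p = 0.0174). The ESC call was lost by edgeR and when any 1 of the A or B libraries was left out, and the EB call when any 1 EB library or KO ESC A was left out. Of the 17, 3 had an unadjusted p under 0.05 in ESCs, edgeR called 1, not Cdk6, and DESeq2 2. In EBs the counts were 2, 1 and 1, and the shares of all genes are as for the regulators. With the replicate block 4 rose and 5 fell in either, against 18.2% and 20.0% of all genes in ESCs and 13.9% and 18.1% in EBs. Cdk4 was the most abundant of the list that did not pass, at 3909 ± 2376 in WT ESCs and 2781 ± 1135 in KO ESCs. Of 16 tested Bcl2 family and caspase genes 0 passed by limma in either. In ESCs 4 had an unadjusted p under 0.05, edgeR called 0 and DESeq2 3, and in EBs the counts were 2, 0 and 1. The shares of all genes are those given for the regulators. With the replicate block 3 rose and 4 fell in ESCs, against 18.2% and 20.0% of all genes, and 2 rose and 1 fell in EBs, against 13.9% and 18.1%. Mcl1, an inhibitor of apoptosis, was the most abundant of them, at 3790 ± 2312 in WT ESCs and 4102 ± 831 in KO ESCs.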

How the data were processed

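Per the labels' protocols, poly(A) RNA entered a TruSeq kit, which keeps no strand. Histone transcripts without a poly(A) tail were nevertheless abundant in all libraries but ESC replicate C, as given above, and the reason was not tested. The submitters' processing notes name the build mm10, alignment by TopHat2 2.0.10 with Bowtie, counting by HTSeq 0.6.0, and also DESeq and CASAVA 1.8.2; the annotation and the strand setting are not given in the sources used here. The deposited table holds a normalized signal per gene, namely read counts that the authors divided by a size factor per library, and 100% of values gave whole reads within 0.01. Symbols and positions come from GENCODE M21 (GRCm38).

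The log2 of values plus 1 was analysed for the 15781 genes whose mean over all libraries reached 10, in 1 limma 3.58.1 fit of 4 group means (trended, robust variances; 6 residual degrees of freedom, 4 with the replicate block). All p-values are two-sided and, per contrast, adjusted by Benjamini and Hochberg's method over these genes. edgeR 4.0.16 and DESeq2 1.42.0 were run on the recovered reads as alternatives. The p-values reflect only how much the labelled libraries scatter, and for EBs, with 2 libraries a group, that scatter comes from every group in the fit.

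Deviations from the group mean correlated across genes at r = 0.845, 0.828 and 0.858 for same-letter ESC libraries of the 2 genotypes, over the bound of 0.1, so the letters were taken to pair ESC libraries. A of 1 genotype with B of the other gave nearly as much, 0.809 and 0.812, and C with A or B gave -0.846 to -0.836. The check thus set C apart from A and B, and it could not show that A pairs with A and B with B. EBs gave 0.369, with too few pairs to decide. A minus B in ESCs correlated with A minus B in EBs across genes at r = 0.360 in WT and 0.330 in KO. That does not show whether a letter marks the same thing in ESCs and EBs.

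The members and lists were chosen with earlier results of these data known. All members are named; library values are given for those passing in any contrast with or without the replicate block and for Trp53, Mdm2 and Cdkn1a. From each pathway list, up to 4 passing members per contrast and direction and the most abundant that did not pass are named. Promoter windows longer than 300 bases were not used here.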

Additional observations from a re-analysis of the deposited data

Results flagged for a closer look

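Btg2 stood out because its KO effect differed between cell types by a test of the difference itself. The KO effect in EBs minus that in ESCs was -2.62 on the log2 scale (limma, adjusted p = 0.047), with the KO higher in 3 of 3 ESC pairs and lower in 2 of 2 EB pairs. Over 21 alternatives it ranged from -2.92 to -2.45, and it passed in 9 of them. Parietal endoderm markers, visceral endoderm markers other than Apoe, Krt8 and Krt18 were also lower in KO EBs, and their part in the difference was not tested.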

How the results depend on the processing

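The number of the 31 genes that passed depended on how replicate C was treated. With the replicate block, which takes libraries of the same letter as pairs, it was 17 in KO against WT ESCs (2 without), 11 in EBs (2 without), 13 and 15 in EBs against ESCs in WT and KO (0 without) and 14 in the difference of KO effects (1 without). In that order 38.2%, 32.0%, 28.5%, 28.2% and 17.2% of all genes passed with the block. The shares without it were 2.38%, 1.84%, 2.48%, 0.805% and 0.475%. With ESC and EB letters as separate terms, an alternative chosen after seeing the data, it was 14, 9 and 9 for ESCs, EBs and the difference (29.3%, 22.7% and 7.79% of all genes); this fit was not run for EBs against ESCs. Without both replicate C libraries it was 20, 16, 23, 22 and 22 in the order KO in ESCs, KO in EBs, EBs against ESCs in WT, in KO, and the difference. The shares of all genes in that order were 55.2%, 51.9%, 46.1%, 47.3% and 36.1%, so the EB count was near the background. DESeq2 gave 6 in ESCs, 3 and 3 in EBs against ESCs and 5 in the difference, against 12.4%, 9.66%, 8.99% and 4.90% of all genes. edgeR gave 0 in ESCs, 1 in EBs and 0 in the difference, against 2.15%, 1.78% and 0.532%. The compared groups alone gave 0 in ESCs and 16 in EBs, where 49.2% of all genes passed. Without trend and robust variances it was 0, 1 and 0 for ESCs, EBs and the difference, against 1.72%, 1.81% and 0.640% of all genes. No filter gave 0 in ESCs (0.147% of all genes), and TMM scaling and a pseudocount of 0.5 gave 0 in the difference (0.412% and 0.285%). Leaving out 1 library at a time gave 0 to 7 in ESCs, 0 to 2 in EBs, 0 to 5 and 0 to 4 in EBs against ESCs in WT and KO, and 0 to 4 in the difference. In the same order 0.00% to 13.8%, 0.00% to 7.36%, 0.0317% to 7.64%, 0.00% to 6.00% and 0.00% to 3.15% of all genes passed. Any 1 of the A or B libraries of ESCs or EBs, when left out, ended the calls of Phlda3, Aen, Ccng1 and Btg2. The cause was not tested. The median over the 31 genes kept its sign under every alternative, at 0.27 to 0.72 for ESCs, -0.24 to -0.20 for EBs and -1.02 to -0.48 for the difference, and none of the 5 calls without the block reversed. Depth limits low values most in replicate C, where 1 read is worth 3.29 normalized counts in WT and 2.78 in KO. The planned longer promoter windows were not run.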
